A study of Mus musculus with 8 samples.

Results

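The abundant long noncoding RNAs of mouse blood mononuclear cells were 86 genes. They are the rows of the gene count table that carry the biotype lncRNA and reached at least 100 raw counts in each of 8 libraries. The table held 56748 genes, of which 11288 were lncRNA rows. The members were thus selected on their own counts, so their high levels are a description and not a result. All 86 passed the filter on low counts, as did 1276 of all lncRNA rows. By name, 72 members carry a symbol and 14 only an Ensembl gene identifier. Of the symbols, 26 are predicted-gene names and 15 are RIKEN clone names.

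The cells came from male wild-type C57BL/6J mice aged 8 weeks, which were gavaged every day for 1 month. The saline mice received the vehicle, and the fucoidan mice received 200 mg per kg per day of fucoidan, a sulphated polysaccharide of the brown seaweed Undaria pinnatifida. Blood was drawn by cardiac puncture, mononuclear cells were isolated on a density gradient, and poly(A) RNA was sequenced, giving 5 saline and 3 fucoidan libraries named as biological replicates. No transgene or deletion is named for either group. The comparison of fucoidan with saline asks which transcripts of circulating leukocytes differ after oral fucoidan.

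Long noncoding RNAs are transcripts of RNA polymerase II that are spliced and polyadenylated much like messenger RNA but are not known to code for a sizeable protein. Some build nuclear bodies, as Neat1 does for paraspeckles. Others are hosts whose introns yield small nucleolar RNAs (snoRNAs, which guide the modification of ribosomal RNA) or whose transcripts yield microRNAs, and some control the stability of other RNAs. Their abundance differs strongly between blood cell types.

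Total counts ran from 13061703 to 16334932 per library. B cell, T cell, NK cell and monocyte markers were all present, which fits the label mononuclear cells, but erythroid and platelet transcripts were present too. Haemoglobin genes took 3.51 to 8.48% of counts after saline and 13.5 to 24.1% after fucoidan, with saline replicate 3 and fucoidan replicate 3 the highest of their groups. Of 18 tested erythroid markers 16 were higher after fucoidan (median log2 fold change 2.27), and their summed level was 33050 to 91280 CPM (counts per 1000000 reads of scaled library size) after saline against 160300 to 382300 CPM after fucoidan. All 14 tested platelet markers were higher (median 1.58; summed level 2927 to 6215 against 8781 to 18890 CPM), as were 13 of 14 NK cell markers (median 1.10; 316 to 467 against 766 to 1073 CPM). Of 15 B cell markers 13 were lower (median -0.68; 8458 to 10900 against 5257 to 7340 CPM), and 4 of 16 T cell markers were higher (8 by DESeq2 or limma-voom; median 0.35; 1417 to 1658 against 1830 to 2365 CPM). Of 14 monocyte markers 3 were higher and 2 lower (6 and 2 by limma-voom; median -0.02; 4692 to 7763 against 5025 to 5795 CPM), and of 12 neutrophil markers 0 were called by edgeR, 0 at an unadjusted p under 0.05, 0 by DESeq2 and 2 by limma-voom (median -0.14; 968 to 2021 against 1002 to 1284 CPM). No marker of these lists was at 0 in all 8 libraries; Ahsp was not analysed here. The part of these cell types in the differences below was not tested. In such bulk samples fewer cells of a type and less RNA per cell cannot be told apart.

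The 86 members together took 0.459 ± 0.0558% of counts after saline (SD, n = 5) and 0.400 ± 0.0343% after fucoidan (SD, n = 3), given without a test because the members were chosen on these counts. With haemoglobin genes left out of the total, that difference of -0.0588 percentage points shrank to -0.00147. All lncRNA rows, chosen by biotype alone, took 0.824 ± 0.109% (SD, n = 5) and 0.658 ± 0.0643% (SD, n = 3). That difference of -0.166 percentage points gave an exact two-sided permutation p of 0.0893, where the smallest p that 56 arrangements allow is 0.0179. With haemoglobin genes left out of the total it was -0.0763 (exact permutation p = 0.286). The members held 54.3 to 57.0% of lncRNA counts in the saline libraries and 60.0 to 61.8% in the fucoidan libraries, so these transcripts carried most of what was counted as lncRNA.

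Within the set, counts were concentrated. The 15 members with the most counts held 56.7% of the members' counts. Levels per kb of exonic gene length ran from 1.15 to 156 CPM per kb with a median of 9.72. The 15 members with the highest levels per kb, partly others than those with the most counts, are described next. The highest level belonged to ENSMUSG00000120754, at 156 ± 34.5 CPM per kb (SD over 8 libraries), a 634-base transcript at chr12:113389913-113390546 on the minus strand (GRCm39, the build of the table). It lies between the immunoglobulin heavy chain gene Ighm, 3563 bases away, and the nearest joining segment, Ighj4, 1588 bases away, with both on its strand. Ighm averaged 2948 CPM after saline and 2239 CPM after fucoidan. Reads of unspliced RNA from joining segment to Ighm could be counted in this row, so it need not be a separate transcript. ENSMUSG00000119972 followed at 141 ± 95.5 and ENSMUSG00000120992 at 105 ± 11.3 CPM per kb. ENSMUSG00000120992, at chr17:35215654-35219393, begins 569 bases from Vars, which encodes the valine tRNA synthetase.

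The spread of these leaders over libraries was unequal. Malat1, a nuclear RNA of the splicing-factor bodies called nuclear speckles, was the fourth at 68.3 ± 33.2 CPM per kb and had the most counts of all members. The other 11 were ENSMUSG00000120250, Gm11274, AW112010, Gm45552, Gm10076, AU020206, ENSMUSG00000120144, ENSMUSG00000121141, Mir142hg, ENSMUSG00000121093 and Norad, at 47.4 to 28.6 CPM per kb. Norad, the last of them, varied least, at 28.6 ± 2.2 CPM per kb. Among these 15 the neighbours in the order from ENSMUSG00000120250 downward differ by less than their SD. Counts of the first 3 transcripts rest on gene models known by identifier only, with no role attached.

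**Figure D1:**
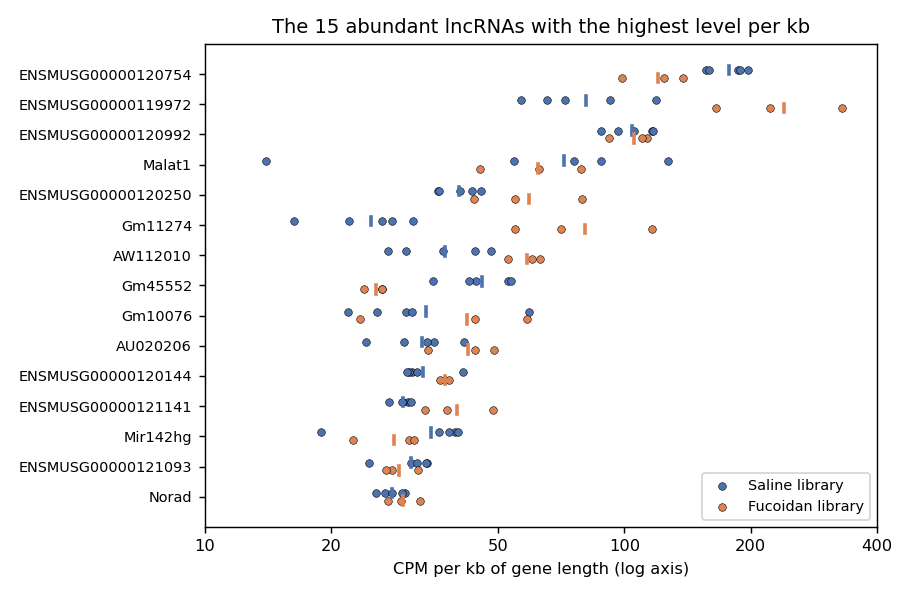
The horizontal log axis gives CPM per kb of gene length, and each row is 1 of the 15 members with the highest mean. Points are libraries (blue saline, n = 5; orange fucoidan, n = 3) and bars are group means; ENSMUSG00000119972 and Gm11274 have all fucoidan points to the right of all saline points, and Malat1 has 1 saline point far to the left.

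After fucoidan 20 members were higher and 11 were lower, and 55 were not called (edgeR's quasi-likelihood test, Benjamini-Hochberg adjusted p under 0.05 over all 14723 genes tested). The 31 calls are 36.0% of the members, 23.3% higher and 12.8% lower. Over all genes tested 13.8% were called, 9.11% higher and 4.65% lower. Among the 8240 genes of any biotype with at least 100 counts in every library the shares were 16.4%, 11.3% and 5.15%, and of the lncRNA rows tested 11.8% were called. The median log2 fold change of the members was -0.04, beside -0.04 over all genes, -0.02 over those with at least 100 counts in every library and -0.22 over the lncRNA rows tested. In size, 10 members rose at least 2-fold while 0 fell that far. This unevenness is partly set by the rule, since fucoidan replicate 3 had the fewest counts and the smallest scaling factor. A minimum of 100 raw counts is thus harder to reach for a gene that falls. With a minimum of 10 CPM in every library instead, 12 were higher and 12 lower.

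In 31 members (36.0%) the library values of the groups did not overlap, 20 of them with fucoidan above and 11 with fucoidan below, against 22.6% of all genes tested. Of these 31, 28 were also called, and 3 called members had overlapping groups (Gm42047, Snhg1 and Gm20186). Fucoidan replicate 3 weighed on the calls. Without it 15 members were called, 13 higher and 2 lower. With the replicate number as a block, 19 were higher and 5 lower, so the lower calls are the less certain ones. In each of 16 alternative settings 13 calls remained, 11 higher and 2 lower. Where only 2 fucoidan libraries are left, the loss of a call need not mean a smaller difference.

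**Figure D2:**
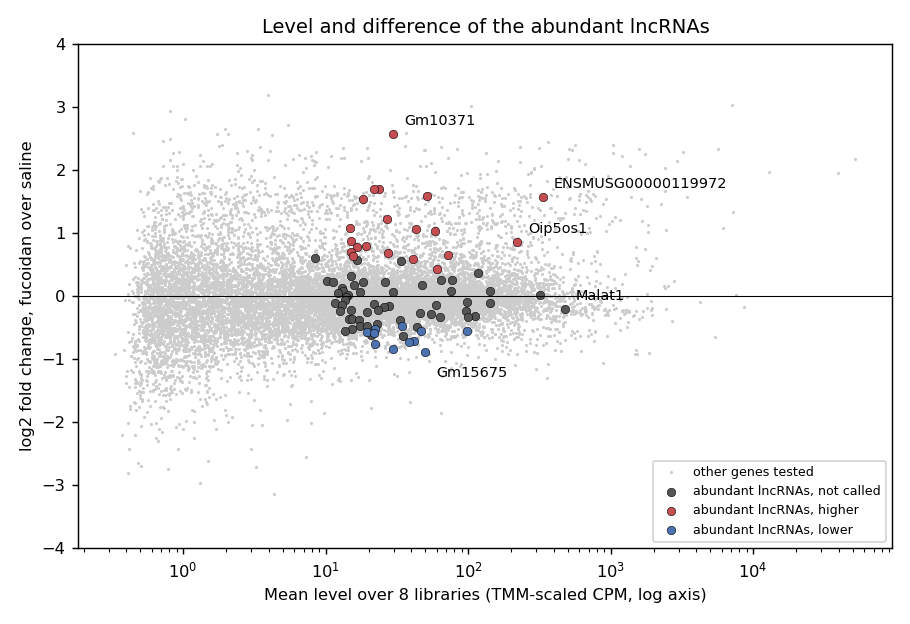
The horizontal log axis gives the mean CPM over 8 libraries and the vertical axis the log2 fold change of fucoidan over saline. Grey points are the other genes tested (2 lie beyond the vertical limits) and large points the 86 members, red for the 20 higher, blue for the 11 lower and dark grey for the 55 not called; the red points reach 2.57 and the blue ones -0.88.

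The largest rise was that of Gm10371 (chr14:47335136-47353618, minus strand). It is a predicted gene with no role attached, and part of it lies opposite the coding gene Samd4. Its promoter and that of Gm11274 are shown because 9 of the 20 risers have a promoter in RefSeq's table (GRCm38.p6) and 4 of these (44.4%) hold AGATAA on either strand, the letters that GATA factors such as the erythroid Gata1 are known to bind. The window runs from 250 bases before to 50 bases after the start. The same letters stood in 12.7% of the 27025 genes with a promoter of that length and in 12.8% of the 47 members with one. Capitals mark AGATAA or its reverse complement TTATCT.
Gm10371 promoter, minus strand: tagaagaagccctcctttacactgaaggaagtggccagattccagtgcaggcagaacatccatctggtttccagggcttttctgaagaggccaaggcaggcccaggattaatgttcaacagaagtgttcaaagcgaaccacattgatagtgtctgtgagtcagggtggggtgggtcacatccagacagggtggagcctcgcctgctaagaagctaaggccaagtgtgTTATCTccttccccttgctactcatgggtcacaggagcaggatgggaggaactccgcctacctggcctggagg
Gm11274 promoter, plus strand: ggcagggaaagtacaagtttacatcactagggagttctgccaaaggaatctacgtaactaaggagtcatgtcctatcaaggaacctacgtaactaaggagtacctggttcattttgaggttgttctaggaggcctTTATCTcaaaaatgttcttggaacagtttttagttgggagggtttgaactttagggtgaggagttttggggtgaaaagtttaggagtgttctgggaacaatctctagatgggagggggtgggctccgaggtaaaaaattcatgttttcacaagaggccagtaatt
Counted from 0 at the first transcribed base, the motif begins at -23 in Gm10371, at -115 in Gm11274, at 21 in 6530402F18Rik and at -172 in Dubr. A match of letters is a description and does not show that a factor binds there.

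Gm10371 stood at 9.79, 8.22, 16.9, 9.59 and 7.67 CPM in saline replicates 1 to 5 and at 39.7, 47.6 and 98.7 CPM in fucoidan replicates 1 to 3. Every fucoidan library was above every saline library, saline replicate 3 was the highest of its group and fucoidan replicate 3 the highest of all. The means were 10.4 ± 3.71 CPM (SD, n = 5) and 62.0 ± 32 CPM (SD, n = 3), with a log2 fold change of 2.57 (SE 0.31, adjusted p = 0.00396), or 5.93-fold. Samd4, whose protein represses translation of target messages, was itself higher (0.285 to 1.69 CPM, log2 fold change 2.50, SE 0.65, adjusted p = 0.0273). The 8137 bases that the pair shares lie on opposite strands. No source used here names a strand setting for the counting, so reads of the pair cannot be assigned with certainty.

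ENSMUSG00000119972 (chr3:70696525-70714652, minus strand) was the most abundant of the risers and the third of all members by counts. Its values were 172, 156, 283, 219.8 and 135 CPM after saline and 532, 395 and 789 CPM after fucoidan. The groups did not overlap, and saline replicate 3 and fucoidan replicate 3 were again the highest of theirs. The means were 193 ± 59.2 CPM (SD, n = 5) and 572 ± 200.0 CPM (SD, n = 3), a log2 fold change of 1.56 (SE 0.25, adjusted p = 0.00401). Neither a protein-coding gene nor an antigen receptor segment lay within 5 kb of it in the table.

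A further 4 members rose about 3-fold, again with saline replicate 3 and fucoidan replicate 3 the highest of their groups. ENSMUSG00000120423 (chr5:92275107-92277972) read 10.2, 12.4, 19, 12.9 and 9.35 CPM after saline and 33.1, 31.9 and 60.2 CPM after fucoidan (log2 fold change 1.71, SE 0.25, adjusted p = 0.00396). Gm11274, a short transcript of 481 bases at chr13:21953295-21954646, read 13.5, 12.7, 15.1, 10.6 and 7.83 CPM and then 34.0, 26.3 and 55.9 CPM (1.69, SE 0.25, adjusted p = 0.00396). In both, the lowest fucoidan library was above the highest saline library. Gm30411 went from 8.44 to 17.5 CPM after saline to 21.1 to 43.5 CPM after fucoidan (1.53, SE 0.27, adjusted p = 0.00498). Gm28609 (chr1:132974434-132996143) went from 19.6 to 42.3 CPM to 65.6 to 119 CPM (1.59, SE 0.23, adjusted p = 0.00396). Gm28609 lies wholly opposite the lipid kinase gene Pik3c2b, which had a log2 fold change of -0.38 (SE 0.14, adjusted p = 0.097), the opposite sign to that of Gm28609.

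Hmga2-ps1, annotated as a pseudogene of the chromatin gene Hmga2 and counted as lncRNA, averaged 17.9 ± 4.35 CPM after saline (SD, n = 5) and 42.2 ± 14.9 CPM after fucoidan (SD, n = 3), a log2 fold change of 1.23 (SE 0.22, adjusted p = 0.00554). Sequence reads of a pseudogene can be shared with its parent, and its whole length lies opposite Sdccag8 (log2 fold change -0.23, adjusted p = 0.189). ENSMUSG00000120309 rose by 1.07 (SE 0.19, adjusted p = 0.00538), from 23.2 to 36.7 CPM after saline to 48.0 to 88.8 CPM after fucoidan. These calls and those of the 6 largest rises stood in each of the 16 alternative settings. AI662270 rose by 1.03 (SE 0.24, adjusted p = 0.0144), where fucoidan replicate 3, at 135 CPM, stood far above replicates 1 and 2, at 63.4 and 61.5 CPM. Without that library its log2 fold change was 0.58 (adjusted p = 0.0397), and with no filter on low counts its adjusted p was 0.0985. Gm9821, opposite the diacylglycerol kinase gene Dgkz, rose by 1.08 (SE 0.26, adjusted p = 0.0181) and by 0.80 without fucoidan replicate 3 (adjusted p = 0.109).

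Oip5os1, also called Cyrano, is the best studied of the risers. In the mouse its conserved site for miR-7 is known to trigger destruction of that microRNA. The site and the microRNA are shown with the seed of miR-7 (bases 2 to 8) and its match in capitals. Both come from GRCm38 annotation (GENCODE M21 and RefSeq), where the match takes positions 2952 to 2958 of an 8300-base transcript.
mmu-miR-7a-5p: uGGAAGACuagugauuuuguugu
Oip5os1 site: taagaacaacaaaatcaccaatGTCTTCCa
Beside the seed, 14 of the 15 bases after it pair with the site once the target is shifted by 2 bases, and that transcript held 2 matches to the seed in all. Oip5os1 read 148, 156, 194, 174 and 169 CPM after saline and 262, 267 and 391 CPM after fucoidan. The lowest fucoidan library lay well above the highest saline library. The means were 168 ± 17.6 CPM (SD, n = 5) and 306 ± 73.0 CPM (SD, n = 3), and the log2 fold change of 0.86 (SE 0.15, adjusted p = 0.00442) was called in each of the 16 alternative settings. Mature microRNAs are not measured in poly(A) libraries, so nothing is known here of miR-7. Its neighbour Oip5, 2009 bases away on the other strand, had few counts and a log2 fold change of -0.16 (adjusted p = 0.898).

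Smaller rises followed. The values of 6530402F18Rik, which lies inside Ntng2 on the same strand, were 12.5 to 18.9 CPM after saline and 23.5 to 29.7 CPM after fucoidan (log2 fold change 0.80, SE 0.15, adjusted p = 0.00643). Ntng2 had a log2 fold change of -0.18 (adjusted p = 0.501). Dubr, named for binding upstream of Dppa2, read 8.99, 11.5, 11.8, 12.7 and 15.8 CPM and then 19.5, 21.6 and 17.9 CPM (0.70, SE 0.17, adjusted p = 0.0185). In Dubr fucoidan replicate 3 was the lowest of its group, unlike in the larger rises, and its adjusted p was 0.0541 and 0.0793 without fucoidan replicates 1 and 2. Gm42047 rose by 0.78 (SE 0.21, adjusted p = 0.0335) with overlapping groups, and its adjusted p was 0.0575 by limma-voom and 0.0597 to 0.146 when saline replicate 1, 4 or 5, or fucoidan replicate 2 or 3, was left out. Gm43672 rose by 0.87 (SE 0.24, adjusted p = 0.0346), stood at 0.47 without fucoidan replicate 3 (adjusted p = 0.18) and had an adjusted p of 0.0509 to 0.0728 without any 1 saline library. ENSMUSG00000121141, which starts 286 bases from Cmip, rose by 0.43 (SE 0.12, adjusted p = 0.0341), by 0.38 with the block (adjusted p = 0.0961) and by 0.28 without fucoidan replicate 3 (adjusted p = 0.167). It also lost its call without saline replicate 3, 4 or 5 or fucoidan replicate 2 (adjusted p 0.0508 to 0.0866).

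The remaining 3 risers were of similar size. Gm19585, the member with the longest span, read 11.4 to 14.6 CPM after saline and 19 to 20.9 CPM after fucoidan (log2 fold change 0.64, SE 0.12, adjusted p = 0.00668). Its groups were narrow and apart, and its call stood in each of the 16 alternative settings. ENSMUSG00000120328 read 17 to 26.5 CPM and then 29.8 to 45.4 CPM (0.68, SE 0.17, adjusted p = 0.0217; 0.49 with adjusted p = 0.122 without fucoidan replicate 3). Gm2682 read 29.7 to 45.5 CPM and then 49.4 to 55.6 CPM (0.59, SE 0.14, adjusted p = 0.0181). Its adjusted p was 0.052, 0.072 and 0.0628 without saline replicate 4, fucoidan replicate 2 and fucoidan replicate 3.

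The order of libraries within a group was alike in many of the risers. Saline replicate 3, which had the highest haemoglobin share of its group (8.48%), was the highest saline library for 13 of the 20 risers (65.0%), against 18.3% of all genes tested. Fucoidan replicate 3, with a haemoglobin share of 24.1%, was the highest fucoidan library for 15 of the 20 (75.0%), against 37.5% of all genes. Saline replicate 5, with the lowest haemoglobin share (3.51%), was the lowest saline library for 8 of the 20 (40.0%), against 16.7%. In the 55 members that were not called, saline replicate 3 was the highest saline library for 11 and fucoidan replicate 3 the highest fucoidan library for 18. The risers were called on these same values, so the place of fucoidan replicate 3 among them is partly set by that choice. The order was not compared with that of the other genes called higher, so it cannot be called particular to these members. The part of erythroid RNA in these rises was not tested. With erythroid and ribosomal repeat genes left out of the scaling 21 members were higher and 11 lower. Of the lncRNAs known for erythroid expression, Bloodlinc was at 0 in all libraries and Ttc39aos1 was too low to be tested.

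**Figure D3:**
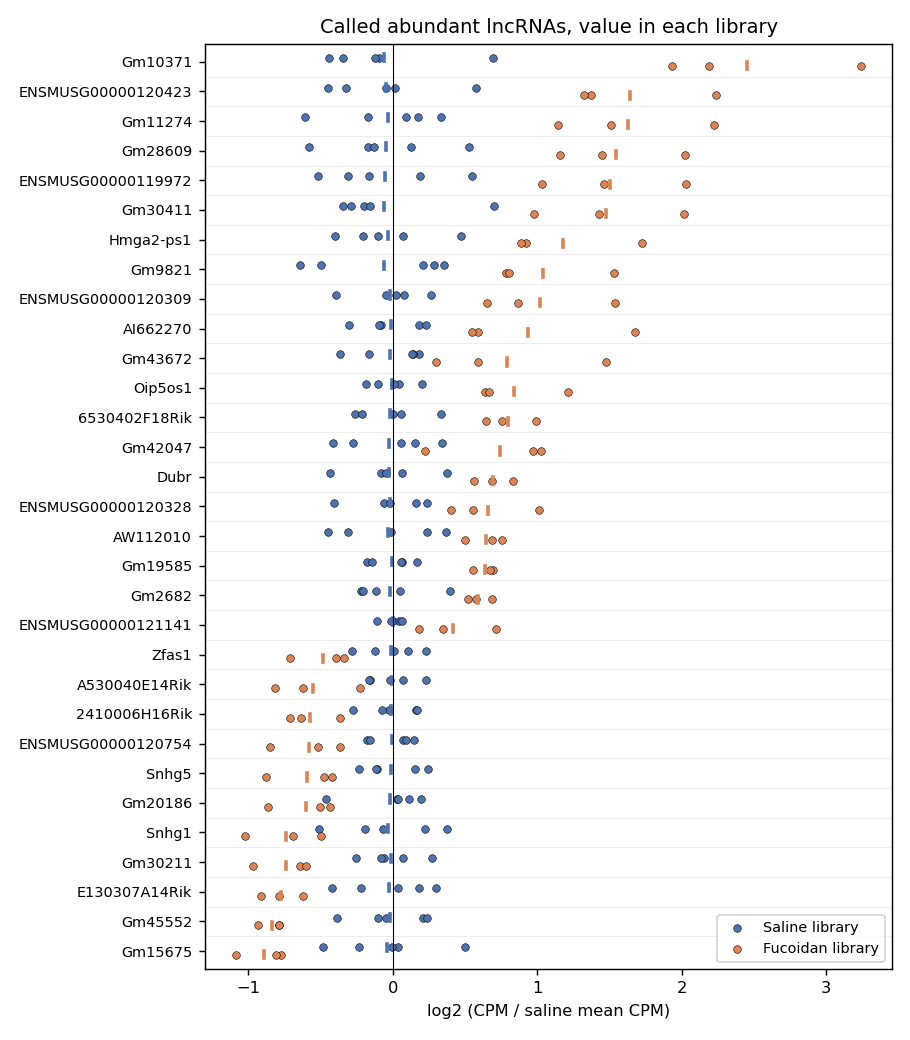
Each row is 1 of the 31 called members, ordered by log2 fold change, and the horizontal axis gives the log2 ratio of each library's CPM to the saline mean. Points are libraries (blue saline, n = 5; orange fucoidan, n = 3) and bars are group means; the top rows have 1 fucoidan point, replicate 3, far to the right, whereas the fucoidan points of the lower rows lie within a narrow band.

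Of the 11 members that fell, 2 lie in immunoglobulin loci, next to genes of B cell receptors. Gm30211 (chr6:70695980-70730451, plus strand) spans the kappa joining segments and the constant gene Igkc on the same strand. It read 38.0, 43.4, 47.6, 54.5 and 42.6 CPM after saline and 28.9, 29.9 and 23.1 CPM after fucoidan. The groups did not overlap, and the log2 fold change of -0.72 (SE 0.14, adjusted p = 0.00648) was called in each alternative setting. Igkc, whose 532 bases all lie within Gm30211, averaged 1466 CPM after saline and 1043 CPM after fucoidan. Reads of this pair cannot be assigned with certainty, and the part of kappa transcripts in the fall of Gm30211 was not tested. ENSMUSG00000120754, the heavy chain transcript described above, read 118, 99.4, 119.7, 125 and 101 CPM and then 78.7, 87.3 and 62.5 CPM (-0.56, SE 0.13, adjusted p = 0.0159; -0.43 with adjusted p = 0.0768 without fucoidan replicate 3). Igkc had a log2 fold change of -0.49 (SE 0.16, adjusted p = 0.0631) and Ighm of -0.40 (SE 0.15, adjusted p = 0.105), so neither constant gene was called. The part of unspliced Ighm RNA in the fall of ENSMUSG00000120754 was not tested. An uncalled member, ENSMUSG00000120432, lies opposite the lambda gene segment Iglv3, which averaged 0 CPM in both groups and was not tested. That member had a log2 fold change of -0.56 (SE 0.19, adjusted p = 0.0779). Its adjusted p was 0.0437 with no filter on low counts and 0.0498 by limma-voom. These immunoglobulin neighbours were looked up after the values were seen, and 13 of 15 B cell markers were lower in the same libraries.

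The largest fall was that of Gm15675 (chr1:130357518-130364928, minus strand). Its values were 43.3, 51.3, 62.0, 85.3 and 60.2 CPM after saline and 35.3, 34.4 and 28.5 CPM after fucoidan. All 3 fucoidan libraries were below all saline libraries, saline replicate 4 being the highest. The means were 60.4 ± 15.8 CPM (SD, n = 5) and 32.7 ± 3.70 CPM (SD, n = 3), a log2 fold change of -0.88 (SE 0.19, adjusted p = 0.0127). Leaving out fucoidan replicate 3 gave -0.78 (adjusted p = 0.0793). Gm15675 lies 1835 bases from Cd55 on the same strand. Cd55, which encodes an inhibitor of complement on the cell surface, fell as well, from 456 to 216 CPM (log2 fold change -1.08, SE 0.15, adjusted p = 0.00396).

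Gm45552 (chr7:44771341-44773568, plus strand) read 34.5, 27.2, 41.0, 41.8 and 33.1 CPM after saline and 20.6, 18.6 and 20.6 CPM after fucoidan. Its fucoidan values lay within a narrow range below all saline values (log2 fold change -0.84, SE 0.15, adjusted p = 0.00521), and the call stood in each alternative setting. E130307A14Rik, opposite Traf3ip2, an adaptor of interleukin 17 signalling, fell by 0.77 (SE 0.17, adjusted p = 0.0133), and its adjusted p was 0.0582 and 0.0588 without fucoidan replicates 1 and 3. Traf3ip2 had a log2 fold change of -0.19 (adjusted p = 0.459).

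Gm20186, which begins 45 bases from Lsm8, fell by 0.58 (SE 0.16, adjusted p = 0.0365), with means of 24.8 ± 4.0 CPM after saline (SD, n = 5) and 16.5 ± 2.50 CPM after fucoidan (SD, n = 3). Its groups overlapped, since saline replicate 1 read 18.1 CPM and fucoidan replicate 1 read 18.3 CPM. With the block its adjusted p was 0.145, and it was 0.0555 to 0.18 without any 1 library other than saline replicate 1. A530040E14Rik fell by 0.53 (SE 0.15, adjusted p = 0.0434; 0.0733 with the block), and its adjusted p was 0.0513 to 0.195 without any 1 library other than saline replicate 2 or fucoidan replicate 1. For the falls, saline replicate 1 was the lowest saline library in 8 of 11 (72.7%), against 25.5% of all genes tested, and saline replicate 4 the highest in 6 of 11 (54.5%), against 14.8%. The saline library that most often stood nearest to fucoidan was thus replicate 3 for the rises and replicate 1 for the falls, but in 7 of the 20 rises and 3 of the 11 falls it was another.

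The members with snoRNAs inside their span on the same strand were 11, with 34 snoRNAs between them, of which 1, in Snhg20, is of the Cajal body kind (scaRNA). Such host genes often belong to the class whose transcription start carries a run of pyrimidines (a TOP motif), as the messages of ribosomal proteins do. The sequence from 20 bases before to 30 bases after the RefSeq start (GRCm38.p6) is shown for the 4 hosts that fell and, for contrast, for 2 uncalled hosts with a run. Capitals mark a run of a C and at least 4 more bases that are C or T, beginning within 5 bases of the start.
Snhg1: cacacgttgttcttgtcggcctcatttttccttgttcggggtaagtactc
Snhg5: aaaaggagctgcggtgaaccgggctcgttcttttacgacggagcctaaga
Zfas1: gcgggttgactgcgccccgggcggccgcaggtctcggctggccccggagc
2410006H16Rik: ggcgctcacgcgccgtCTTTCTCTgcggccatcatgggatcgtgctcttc
Gas5: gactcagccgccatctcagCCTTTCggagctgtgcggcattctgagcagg
Snhg8: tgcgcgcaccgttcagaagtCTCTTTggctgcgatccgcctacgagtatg
Such a run stood at a start of 4 of the 10 hosts with a promoter in the table (40.0%), of 12 of the 47 members (25.5%) and of 21.2% of all 27025 genes. Only 2410006H16Rik of the 4 hosts that fell had one in this window, and the fourth host with a run was AI506816. No run in this window says only that these letters are not at the annotated start.

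Of the 11 hosts 0 were higher and 4 were lower by edgeR, where 12.8% of all members and 4.65% of all genes tested were lower. Their median log2 fold change was -0.45, beside -0.22 over the lncRNA rows tested and -0.04 over all genes. At an unadjusted p under 0.05 there were 1 higher and 5 lower, by DESeq2 0 and 4, and by limma-voom 1 and 4. Snhg1, which holds 8 snoRNAs, read 34.2, 42.8, 56.9, 63.3 and 46.6 CPM after saline and 34.5, 30.2 and 24 CPM after fucoidan. Saline replicate 1 lay just below fucoidan replicate 1, and the other values did not overlap. Its log2 fold change was -0.72 (SE 0.20, adjusted p = 0.0334). The neighbouring amino acid transporter gene Slc3a2, which starts 67 bases away in the other direction, had a log2 fold change of 0.25 (SE 0.13, adjusted p = 0.241).

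Snhg5, with 2 snoRNAs, read 18.9, 26.4, 20.6, 24.7 and 20.5 CPM after saline and 16.6, 16 and 12.1 CPM after fucoidan (log2 fold change -0.57, SE 0.15, adjusted p = 0.0323). Zfas1, with 3 snoRNAs and 82 bases opposite Znfx1, read 31.5, 44.9, 38.5, 41.3 and 35.2 CPM and then 30.2, 29.2 and 23.4 CPM (-0.47, SE 0.14, adjusted p = 0.0446). 2410006H16Rik, also with 3 snoRNAs, read 44.1, 52.4, 59.4, 59.9 and 50.5 CPM and then 41.4, 34.3 and 32.5 CPM (-0.56, SE 0.13, adjusted p = 0.0158). In these 3 genes each fucoidan library was below each saline library, and fucoidan replicate 3 was the lowest. All 4 calls were lost with the replicate block, where the adjusted p was 0.172 for Snhg1, 0.0616 for Snhg5, 0.0844 for Zfas1 and 0.0577 for 2410006H16Rik. Without fucoidan replicate 3 it was 0.17, 0.159, 0.21 and 0.0926, and without fucoidan replicate 2 it was 0.0951, 0.066, 0.0901 and 0.0651. Snhg1 also lost its call without saline replicate 3, 4 or 5 (adjusted p 0.0568 to 0.0731), Snhg5 without saline replicate 2 or 4 or fucoidan replicate 1 (0.0509 to 0.0792), and Zfas1 without saline replicate 2, 3, 4 or 5 or fucoidan replicate 1 (0.0592 to 0.102). Zfas1 had an adjusted p of 0.0537 with median-of-ratios size factors.

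The other 7 hosts were not called by edgeR. Gas5, a host of 10 snoRNAs named for its accumulation in growth-arrested cells, read 75.0, 98.6, 116, 116 and 103 CPM after saline and 93.7, 88.1 and 77.6 CPM after fucoidan (log2 fold change -0.23, SE 0.14, adjusted p = 0.323). Its groups overlapped because of saline replicate 1. Snhg15 had a log2 fold change of -0.61 (SE 0.33, adjusted p = 0.251), with saline libraries from 12.8 to 43.7 CPM, a 3.41-fold range. Snhg8 stood at -0.45 (SE 0.19, adjusted p = 0.145, and -0.55 with adjusted p = 0.0406 without saline replicate 1) and Snhg20 at -0.36 (SE 0.28, adjusted p = 0.44). Epb41l4aos, at -0.14 (SE 0.18, adjusted p = 0.674), and Snhg17, at 0.01 (SE 0.12, adjusted p = 0.967), differed little. AI506816 had the opposite sign, 53.3 to 64.7 CPM against 68.0 to 75.4 CPM (0.26, SE 0.10, adjusted p = 0.0981), without overlap of the groups, and limma-voom called it (0.30, adjusted p = 0.035). Over the list of 20 known snoRNA host lncRNAs, members or not, 16 were tested. Of these 0 were higher and 4 lower (Snhg1, Snhg5, Zfas1 and Snhg16), with a median of -0.48, beside -0.22 over the lncRNA rows tested. At an unadjusted p under 0.05 there were 0 higher and 8 lower, and by DESeq2 and by limma-voom 0 and 5. Snhg16, below the count threshold of the set, averaged 8.14 ± 1.19 CPM after saline (SD, n = 5) and 5.23 ± 0.674 CPM after fucoidan (SD, n = 3), a log2 fold change of -0.63 (SE 0.18, adjusted p = 0.0388).

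The snoRNAs themselves were hardly counted in these poly(A) libraries. Of the 34 within members all but 1 were at 0 in every library, and that 1, inside AI506816, reached 1 count. Genes for the proteins that bind snoRNAs, such as Fbl, Nop56 and Dkc1, gave 0 calls among 15 (median log2 fold change -0.05), and 0 also at an unadjusted p under 0.05, by DESeq2 and by limma-voom. Factors of nonsense-mediated decay, the pathway known to destroy spliced host transcripts, gave 0 calls among 15 by edgeR (median -0.03), with 2 lower at an unadjusted p under 0.05, 0 by DESeq2 and 1 lower by limma-voom. For the nuclear RNA exosome and its adaptors the count was 0 of 17 by edgeR (median -0.18), with 4 lower at an unadjusted p under 0.05, 0 by DESeq2 and 1 lower by limma-voom. The ribosomal repeat annotation AY036118, the 1 tested of its list, had a log2 fold change of -0.68 and was not called.

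**Figure D4:**
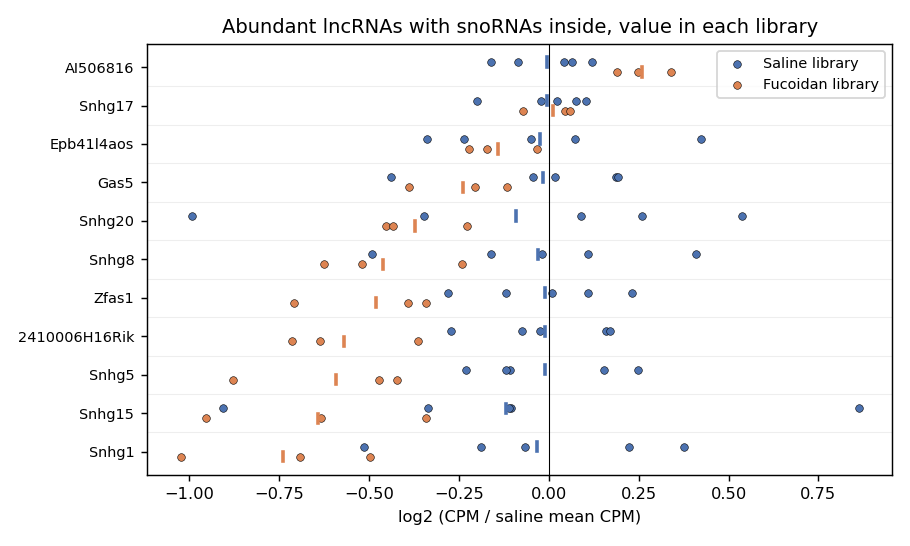
Each row is 1 of the 11 members with snoRNAs inside, ordered by log2 fold change, and the horizontal axis gives the log2 ratio of each library's CPM to the saline mean. Points are libraries (blue for saline, n = 5, and orange for fucoidan, n = 3) and bars are group means. The fucoidan means lie left of the saline means in 9 rows. In Zfas1, 2410006H16Rik and Snhg5 the points of the groups are apart with fucoidan to the left. In AI506816 they are apart with fucoidan to the right.

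The members that hold a microRNA on their own strand were Mir142hg, Dleu2, Ftx, F630028O10Rik, Gm15987 and Snhg20. Mature sequences from RefSeq (GRCm38.p6) are shown for microRNAs well known in blood cells, with the seed in capitals: miR-142 of all blood lineages, miR-223 of myeloid cells, and the pair miR-15a and miR-16, which share the seed AGCAGCA.
mmu-miR-142a-3p, in Mir142hg: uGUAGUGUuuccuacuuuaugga
mmu-miR-142a-5p, in Mir142hg: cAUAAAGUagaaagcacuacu
mmu-miR-15a-5p, in Dleu2: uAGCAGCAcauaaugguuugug
mmu-miR-16-5p, in Dleu2: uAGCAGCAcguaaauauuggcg
mmu-miR-223-3p, in F630028O10Rik: uGUCAGUUugucaaauacccca
Of these 6 members 0 were called by edgeR, and 0 also at an unadjusted p under 0.05, by DESeq2 and by limma-voom. Mir142hg read 32.3, 67.1, 61.8, 68.3 and 65.0 CPM after saline and 52.2, 53.8 and 38.5 CPM after fucoidan. Saline replicate 1 was below every other library, and the remaining 4 saline libraries were above all 3 fucoidan libraries. Its log2 fold change was -0.29 (SE 0.22, adjusted p = 0.439), and -0.44 with an adjusted p of 0.035 without saline replicate 1. Dleu2, whose human counterpart is often deleted in chronic lymphocytic leukaemia, read 14.0 to 19.2 CPM after saline and 16.4 to 21.9 CPM after fucoidan (0.22, SE 0.15, adjusted p = 0.36). Ftx, a transcript of the X inactivation centre, had a log2 fold change of -0.25 (SE 0.16, adjusted p = 0.339), F630028O10Rik of -0.01 (SE 0.32, adjusted p = 0.982) and Gm15987 of -0.26 (SE 0.17, adjusted p = 0.357). F630028O10Rik ranged from 6.02 to 21.6 CPM among the saline libraries, so a moderate difference in it was not detectable here.

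Of the list of 12 known microRNA host lncRNAs 6 were tested and 0 called by edgeR, with a median of -0.27. At an unadjusted p under 0.05 there were 1 higher and 2 lower, and by DESeq2 and by limma-voom 0 and 2. Mir22hg and Mir17hg, which did not reach 100 counts in every library, had log2 fold changes of -0.89 (SE 0.28, adjusted p = 0.0605) and -0.85 (SE 0.26, adjusted p = 0.0504).

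The nuclear RNAs that are the most familiar members were not called. Malat1 read 97.9, 889, 382, 614 and 530.3 CPM after saline and 316, 550.5 and 438 CPM after fucoidan. The saline libraries alone spanned a 9.08-fold range, the widest of all members, with saline replicate 1 at the bottom and replicate 2 at the top and every fucoidan library in between. Its log2 fold change was -0.21 with an SE of 0.49 (adjusted p = 0.832), too wide to tell a rise from a fall, and it was 0.38 with the replicate block and 0.10 without saline replicate 2. Neat1, from the neighbouring locus, read 103, 136, 143, 186 and 165 CPM and then 153, 136 and 120.0 CPM (-0.10, SE 0.17, adjusted p = 0.743; 0.10 with the block), again lowest in saline replicate 1. Of 15 nuclear speckle proteins 0 were higher and 1 lower by edgeR, DESeq2 and limma-voom, with 0 and 2 at an unadjusted p under 0.05 (median -0.13): the splicing factor Srsf5 with -0.63 (SE 0.14, adjusted p = 0.0122).

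Norad, a cytoplasmic RNA that binds Pumilio proteins, differed little between libraries. It read 132, 126, 148, 146 and 138 CPM after saline and 135, 145 and 161 CPM after fucoidan (log2 fold change 0.09, SE 0.10, adjusted p = 0.624). The groups overlapped. Its longest transcript in GENCODE M21 holds 11 copies of TGTANATA, the core of the Pumilio site, in 4915 bases on the transcribed strand. That is 2.24 per kb, against 0.122 per kb over the longest transcripts of 21418 lncRNA genes, and 2 other genes held as many or more. Of the list of 15 nuclear and chromatin lncRNAs 10 were tested and 0 called by edgeR (median -0.03), with 1 higher at an unadjusted p under 0.05 and 0 by DESeq2 and limma-voom. Tug1, which lies outside the set because the table does not give it the biotype lncRNA, had a log2 fold change of 0.04 (SE 0.09, adjusted p = 0.817). Xist had 0 or 1 counts in each library of these male mice.

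**Figure D5:**
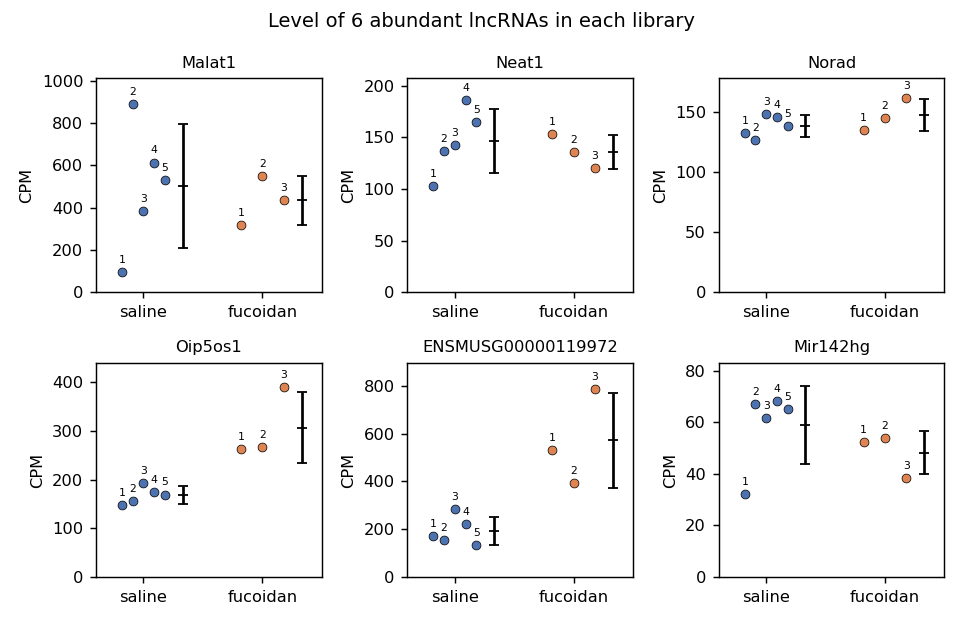
Each panel gives the CPM of 1 member in each library, numbered by replicate, with black bars for the group mean and SD (saline n = 5, fucoidan n = 3). Malat1 spans 97.9 to 889 CPM among the saline libraries, Norad lies between 126 and 161 CPM in all 8, and Oip5os1 and ENSMUSG00000119972 have all fucoidan points above all saline points.

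Of the 19 lncRNAs listed for published immune roles 8 were tested, with 2 higher and 0 lower by edgeR and a median log2 fold change of -0.06. At an unadjusted p under 0.05 there were 2 higher and 1 lower, by DESeq2 2 and 0, and by limma-voom 2 and 1. AW112010, an interferon-inducible transcript from which a protein needed for mucosal immunity is made in mouse macrophages, read 70.0, 76.7, 48.0, 43.5 and 58.8 CPM after saline and 100.4, 84.0 and 95.7 CPM after fucoidan. The groups did not overlap, and fucoidan replicate 1 was the highest. The means were 59.4 ± 14.1 CPM (SD, n = 5) and 93.4 ± 8.46 CPM (SD, n = 3), a log2 fold change of 0.65 (SE 0.17, adjusted p = 0.0291). With the replicate block the adjusted p was 0.0571, and it was 0.0535 to 0.101 when saline replicate 3, 4 or 5, or fucoidan replicate 1 or 3, was left out. The second was Morrbid, a regulator of myeloid lifespan below the count threshold, with a log2 fold change of 0.62 (SE 0.17, adjusted p = 0.0352). Mirt1, named after an induction in infarcted heart, read 20.4, 48.6, 38.8, 56.5 and 36.7 CPM and then 20.8, 31.4 and 25.2 CPM (-0.64, SE 0.27, adjusted p = 0.153; -0.81 with adjusted p = 0.0217 without saline replicate 1; -0.78 with adjusted p = 0.044 by limma-voom). Saline replicate 1 was the lowest library and the other 4 saline libraries were above all 3 fucoidan libraries.

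Of the highest-ranked members not yet given, 6 were uncalled. ENSMUSG00000120992 read 268 to 355 CPM after saline and 279.9 to 345 CPM after fucoidan (log2 fold change 0.01, SE 0.13, adjusted p = 0.974), whereas its neighbour Vars had a log2 fold change of -0.36 (SE 0.10, adjusted p = 0.0353). ENSMUSG00000121093 stood at -0.09 (SE 0.12, adjusted p = 0.673), ENSMUSG00000120144 at 0.17 (SE 0.12, adjusted p = 0.374) and Gm10076, of 407 bases, at 0.31 (SE 0.34, adjusted p = 0.603). AU020206 stood at 0.36 (SE 0.17, adjusted p = 0.19) and at 0.51 with the replicate block (adjusted p = 0.0232). ENSMUSG00000120250 was the nearest to the threshold, at 0.55 (SE 0.17, adjusted p = 0.0521). It was called with size factors of DESeq2, with DESeq2, without the filter and without fucoidan replicate 2 (adjusted p 0.0167 to 0.0477).

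In structure the members varied widely in length and span. The exonic length ran from 407 to 21163 bases, with a median of 3166.5, and the genomic span from 407 to 177571 bases with a median of 8011. In 26 members length and span were equal, so annotated exons together cover the whole span, and of these 4 were higher and 5 lower. This does not mark a transcript as unspliced, since the snoRNA hosts Snhg1 and Zfas1 are among them. The span of 27 members met a protein-coding gene, in 24 cases on the opposite strand and in 4 on the same strand, and 10 of the 27 were called, beside 31 of all 86 members. With no strand setting known, the reads of such pairs cannot be told apart. Within 5 kb of 55 members lay 72 protein-coding genes, of which 68 were tested, 4 were higher and 3 lower. In 2 pairs member and neighbour moved the same way (Gm10371 with Samd4, and Gm15675 with Cd55). The other 5 called neighbours were beside uncalled members: Vars beside ENSMUSG00000120992, Ms4a4b (log2 fold change 0.40, SE 0.11, adjusted p = 0.0341) and Gm8369 (-0.89, SE 0.12, adjusted p = 0.00396) beside BE692007, Tmcc2 (2.07, SE 0.36, adjusted p = 0.00489) beside F730311O21Rik, and Isg15 (2.12, SE 0.29, adjusted p = 0.00396) beside AW011738. BE692007, F730311O21Rik and AW011738 had log2 fold changes of -0.34, -0.49 and 0.58 (adjusted p = 0.201, 0.307 and 0.166), and F730311O21Rik had -0.67 without saline replicate 2 (adjusted p = 0.0426).

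At the edge of the threshold, Gm47469 and 4930426D05Rik had a lowest count of 100 and ENSMUSG00000120432 of 101. Just outside were E330020D12Rik and 2010016I18Rik with 99 and Gm1968 with 97. A minimum in every library leaves out genes that are low in either group, but in raw counts it is not equally strict in each library. The 99 counts of E330020D12Rik were 10.9 CPM in fucoidan replicate 3, and those of 2010016I18Rik were 5.60 CPM in saline replicate 1. A gene that falls after fucoidan is thus left out at higher saline levels than a gene that rises. With a minimum of 50 counts there were 162 members of which 44 were called (27.2%), 27 higher and 17 lower. With 200 counts there were 41 of which 17 were called (41.5%), 11 higher and 6 lower. With 10 CPM there were 66 of which 24 were called (36.4%), 12 higher and 12 lower. The excess of rises over falls was thus not seen with a minimum in CPM. The labels do not say how many animals each library holds, so the p-values measure the spread between these libraries.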

How the data were processed

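Poly(A) RNA of mononuclear blood cells was sequenced as paired ends in 5 saline and 3 fucoidan libraries. The authors deposited whole-number read counts per gene. Per the submitters' processing notes, cutadapt 4.0, Trimmomatic 0.39 and HISAT2 2.2.1 were used with the GRCm39 build; the sources used here name no counter, annotation release or strand setting. Groups follow the sample titles and characteristics. The treatment text of the fucoidan samples names saline and was not followed.

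From these counts, genes passing edgeR's filter on low counts were tested with edgeR 4.0.16 (quasi-likelihood, robust, TMM scaling, R 4.3.3) and p-values were adjusted by Benjamini-Hochberg over all 14723 genes. The SE is the log2 fold change over the root of F. CPM values are counts per 1000000 of TMM-scaled library size, and levels per kb divide them by the deposited gene length. Alternatives used DESeq2 1.42.0, limma 3.58.1 (voom with quality weights), other scalings, filters, count minimums, each library left out, and the replicate number as a block. In their deviations from the group means, same-numbered libraries of the groups had correlations of 0.177, 0.233 and 0.144, against -0.261 to 0.144 for other pairs. This weak pairing was not tested, and the block is given where it changes a call. The labels give the numbers no meaning beyond replicate.

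The members, gene lists and tests were chosen with earlier results of these data known. Genes named are the called members with the largest changes, the members with the highest levels per kb, the snoRNA and microRNA hosts and listed genes that passed the test. The 3 remaining risers, the immunoglobulin neighbours, the promoter motifs and the uncalled members and list genes given beside these were added after their values were seen. The fit was tested on simulated data. Sequences came from RefSeq (GRCm38.p6) and GENCODE M21, matched by symbol or gene identifier. Coordinates are those of the count table. Counts cover 13061703 to 16334932 reads per library, which sets the precision for weak genes. Some neighbouring and listed genes are not reported here.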

Additional observations from a re-analysis of the deposited data

Results flagged for a closer look

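In 5 of the 48 members described by rule, 1 saline library stood apart from the other 4 by more than Dixon's critical value (8 of all 86 members). Chance flags about 1 in 20 groups. For Gm10371, saline replicate 3 was the highest, at 16.9 CPM, and its gap was 0.77 of the group's range. For Gm30411, saline replicate 3 was the highest, at 17.5 CPM, with a gap of 0.866. For Gm10076, saline replicate 1 was the highest, at 24.1 CPM, with a gap of 0.756. For ENSMUSG00000120144, saline replicate 1 was the highest, at 56.9 CPM, with a gap of 0.853. For Mir142hg, saline replicate 1 was the lowest, at 32.3 CPM, with a gap of 0.818.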

How the results depend on the processing

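Over all genes tested, the lower calls numbered 684, 1063 by limma-voom and 439 with the replicate block. With 1 library left out at a time, all calls ranged from 928 to 2224, the higher from 746 to 1368 and the lower from 182 to 856. Among the members, 31 calls ranged from 15 to 32, the 20 higher from 13 to 20 and the 11 lower from 2 to 14. The fewest came without fucoidan replicate 3. With the block 5 members were lower, and the calls lost are named in the report; AU020206 gained one, and the block changed no other call of a member. With a minimum of 200 counts 17 members were called, 11 higher and 6 lower, and with 50 counts 17 were lower. With 10 CPM 12 were higher and 12 lower. The members' share of counts differed by -0.0588 percentage points, and by -0.001474 without haemoglobin genes. No called result changed sign; 35 values of uncalled members did. The median log2 fold change of all genes ran from -0.107 (no filter) to -0.021. With 3 fucoidan libraries, a missing call does not show that levels were alike.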
